A study of Mus musculus with 8 samples.

Results

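Acetylation of histone H3 at lysine 27 (H3K27ac) was compared between breast tumors of mice with and without a TSLP transgene, and 1192 intergenic regions with a peak in each control tumor but no peak in a test tumor are described here. These control-only intergenic regions, hereafter members, were selected on measured peak presence. The peaks of 4 tumors were joined into 89238 union regions on the 19 autosomes, and a region was kept when a peak of each control tumor and no peak of a test tumor overlapped it by at least 1 bp and when it touched no protein-coding gene body and no transcription start site (TSS) with 1 kb on either side. Of all autosomal union regions 3055 (3.42%) were control-only at any position. Of 31584 intergenic union regions the 1192 members made up 3.77%, and 486 (1.54%) showed the reverse, a peak in each test tumor but none in a control tumor. With the same number of widest peaks taken in each tumor these counts were 845 and 574, so their ratio moved from 2.45 to 1.47. Because presence in these 4 tumors chose the members, their absence from the test tumors is not a result.

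All mice were Balb/c animals that carried the MMTV-PyMT oncogene, which drives mammary carcinoma, on a Rag1KO background that lacks mature T and B cells, and all received injected wild-type CD4+ T cells when they were 4 weeks old. Control tumors came from PyMT;Rag1KO mice (n = 2) and test tumors from K14-TSLPtg;PyMT;Rag1KO mice (n = 2), in which the keratin 14 promoter expresses TSLP, an epithelial cytokine, in skin and other stratified epithelium. Tumors were taken at terminal size, and in the sample titles the control samples are called tumor but the test samples cyst. The labels give no grade or cell makeup of a tumor. Control 1 had 68404 autosomal peaks, control 2 had 66585, test 1 had 64438 and test 2 had 58328, so test 2 had the fewest. Peak lists give positions without read counts, so the depth behind them is unknown.

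H3K27ac is placed by the acetyltransferases CBP and p300 and marks active promoters and active distal enhancers. An acetylated region away from any promoter is read as a candidate enhancer, and which enhancers are active differs more between cell types than promoter activity does. A breast tumor holds carcinoma cells together with fibroblasts, endothelial cells and leukocytes, so each peak list is a mixture. In such bulk tissue, fewer cells of a type and less acetylation per cell cannot be told apart.

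To show what the members hold in sequence, 300 bases around the centre are given for the widest member, for members of 3 runs of neighbouring members and for members near 3 genes of the lists described further on. The letters come from the RefSeq copy of GRCm38.p6, the assembly also called mm10. Capitals mark matches, on either strand, to the sites of AP-1, TEAD, RUNX, PU.1, GATA factors or SRF (the CArG box). Their shares are given in the paragraphs on motifs, with the letters of each site but the CArG box.

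Widest member, between Prickle1 and Adamts20, chr15:93959174-93959473, plus strand: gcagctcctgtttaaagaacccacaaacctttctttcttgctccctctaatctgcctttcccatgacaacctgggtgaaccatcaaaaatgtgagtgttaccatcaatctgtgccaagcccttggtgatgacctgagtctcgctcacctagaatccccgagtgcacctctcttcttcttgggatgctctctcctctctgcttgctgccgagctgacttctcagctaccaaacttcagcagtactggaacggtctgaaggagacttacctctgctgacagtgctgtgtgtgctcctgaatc

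Cog6 run, member 2 of 6, chr3:52927357-52927656, plus strand: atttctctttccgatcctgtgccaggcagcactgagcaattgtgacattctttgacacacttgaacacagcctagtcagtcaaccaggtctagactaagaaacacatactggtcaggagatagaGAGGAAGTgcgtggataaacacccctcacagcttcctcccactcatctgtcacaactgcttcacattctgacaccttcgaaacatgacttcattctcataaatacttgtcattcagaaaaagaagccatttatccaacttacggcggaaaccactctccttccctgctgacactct

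Cog6 run, member 5 of 6, chr3:52955556-52955855, plus strand: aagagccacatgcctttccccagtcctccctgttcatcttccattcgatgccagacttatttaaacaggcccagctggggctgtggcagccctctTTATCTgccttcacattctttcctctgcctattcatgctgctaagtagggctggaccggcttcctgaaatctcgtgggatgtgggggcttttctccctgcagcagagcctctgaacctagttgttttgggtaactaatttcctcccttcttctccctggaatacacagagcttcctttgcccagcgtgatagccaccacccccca

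4930435C17Rik run, its widest member, chr7:39832614-39832913, plus strand: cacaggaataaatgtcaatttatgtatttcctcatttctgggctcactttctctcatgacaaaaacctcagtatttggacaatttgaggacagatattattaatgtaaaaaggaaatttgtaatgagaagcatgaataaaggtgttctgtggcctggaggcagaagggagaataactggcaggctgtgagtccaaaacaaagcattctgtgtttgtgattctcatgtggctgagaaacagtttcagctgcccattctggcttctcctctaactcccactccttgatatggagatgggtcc

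Id3 run, its widest member, chr4:136117123-136117422, plus strand: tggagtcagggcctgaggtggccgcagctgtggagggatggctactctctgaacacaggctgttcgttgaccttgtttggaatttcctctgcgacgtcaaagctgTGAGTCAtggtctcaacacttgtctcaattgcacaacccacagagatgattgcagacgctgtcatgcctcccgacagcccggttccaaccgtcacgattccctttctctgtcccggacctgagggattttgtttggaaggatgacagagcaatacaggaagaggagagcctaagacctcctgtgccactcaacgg

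Col1a2, member 2 of 3, chr6:4431894-4432193, plus strand: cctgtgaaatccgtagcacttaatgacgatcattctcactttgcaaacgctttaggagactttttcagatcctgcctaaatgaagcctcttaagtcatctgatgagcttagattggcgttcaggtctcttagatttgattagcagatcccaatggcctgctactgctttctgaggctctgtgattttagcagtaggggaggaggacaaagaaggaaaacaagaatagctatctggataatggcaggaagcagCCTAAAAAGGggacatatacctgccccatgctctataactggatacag

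Dcn, member 3 of 3, chr10:97470324-97470623, plus strand: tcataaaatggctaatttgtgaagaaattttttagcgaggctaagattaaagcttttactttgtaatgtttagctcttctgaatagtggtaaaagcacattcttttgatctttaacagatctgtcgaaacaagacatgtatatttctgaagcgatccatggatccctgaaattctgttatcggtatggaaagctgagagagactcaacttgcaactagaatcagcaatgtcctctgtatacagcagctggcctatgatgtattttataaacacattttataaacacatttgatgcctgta

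Tyrobp, member 2 of 2, chr7:30412269-30412568, plus strand: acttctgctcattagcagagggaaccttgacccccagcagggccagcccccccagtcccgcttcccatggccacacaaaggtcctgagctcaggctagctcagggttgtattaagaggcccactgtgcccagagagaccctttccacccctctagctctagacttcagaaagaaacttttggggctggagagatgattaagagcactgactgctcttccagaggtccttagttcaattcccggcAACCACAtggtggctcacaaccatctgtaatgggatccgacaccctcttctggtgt

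The window of member 2 of the Cog6 run held a PU.1 match, that of member 5 a GATA match and that of the Id3 run an AP-1 match. The Col1a2 window held a CArG box and the Tyrobp window a RUNX match that lay in soft-masked repeat sequence. The windows of the widest member, of the 4930435C17Rik run and of Dcn held 0 matches to these 6 patterns. The Col1a2, Dcn and Tyrobp windows were chosen after their values were seen, and a match is only a run of letters.

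Members were narrow. Their median width was 404 bp, 66.1% were under 500 bp and 69 (5.79%) reached 1 kb, with a range from 159 to 3316 bp. Test-only intergenic regions had a median of 424.5 bp, and the 10170 intergenic regions of all 4 tumors had 1576 bp. The median number of bases in peaks of control 1 was 285.5 bp and in peaks of control 2 it was 262 bp. A peak of the smallest width found among members, 155 bp in control 1 and 158 bp in control 2, accounted for 87 and 120 members.

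The width of a member in control 1 said little of its width in control 2. Across the 1192 members the log2 widths had a Pearson r of 0.227, given as a description since all members come from the same pair of lists. In 327 members (27.4%) the widths differed by more than 2 times. A median of 48.8% of a member's bases lay in peaks of both control tumors, and 621 members had less than 50% in both. The scatter of widths shows this spread around the diagonal and the pile-up at the smallest width.

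**Figure D1:**
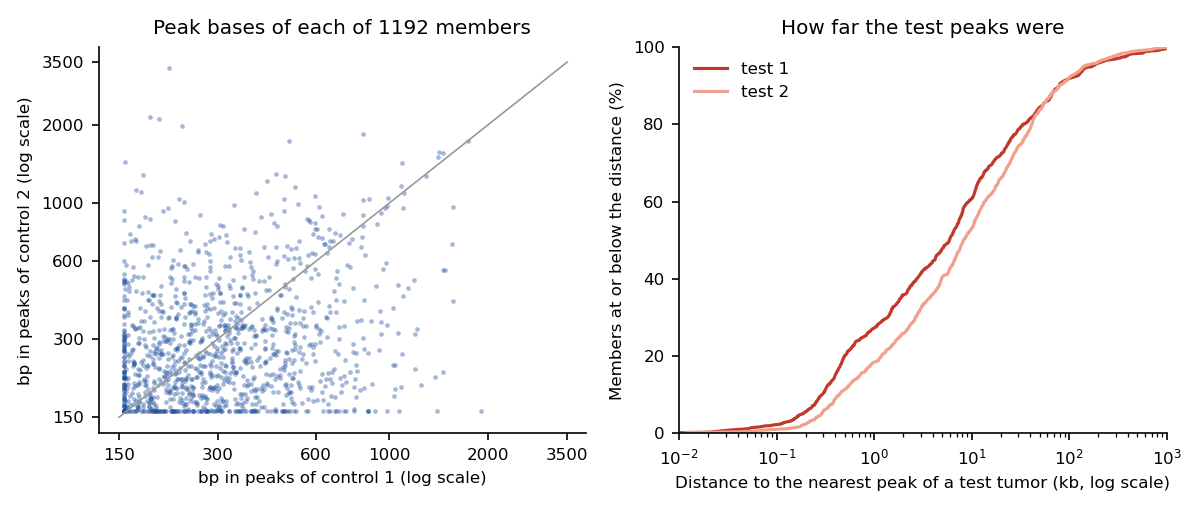
Left, bases in peaks of control 1 (x axis, bp, log scale) and control 2 (y axis, bp, log scale) for each of 1192 members, with the line of equal width. Right, cumulative percent of members (y axis) by distance to the nearest peak of test 1 or test 2 (x axis, kb, log scale). Medians were 5902 bp for test 1 and 8234 bp for test 2.

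The 10 widest members included 5 that rested on a broad peak in a control tumor and a peak over 5 times narrower in the other. The widest, chr15:93957666-93960981, lay in the noncoding gene Gm30564, 361775 bp upstream of Prickle1, a planar cell polarity gene. It had 3316 bp in control 2 and 213 bp in control 1. The next, chr9:85616002-85618142, lay 131192 bp downstream of the TSS of Ibtk and had 2141 bp in control 2 and 186 bp in control 1. The region chr15:98026722-98028828, was 22027 bp upstream of Col2a1, which encodes the cartilage collagen, with 2107 bp and 199 bp in the same order. A member 149634 bp downstream of the TSS of Tgfb2, the TGF-beta 2 ligand, at chr1:186554377-186556355, had 1979 bp in control 2 and 234 bp in control 1. In these 4 the peak was broad in control 2 alone. Beside them chr9:97144530-97146432, upstream of the mitochondrial carrier gene Slc25a36, had 1903 bp in control 1 and 158 bp in control 2.

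In the other 5 the widths did not differ by more than 5 times. At chr3:52926512-52928502, beyond the 3′ end of Cog6, control 1 had 1743 bp and control 2 had 1737 bp. At chr7:39831836-39833692, in the lincRNA 4930435C17Rik, they had 1418 and 1574 bp. At chr10:37336843-37338603, 197923 bp upstream of Marcks, an actin-regulating substrate of protein kinase C, they had 1413 and 1509 bp. The member at chr2:103905683-103907525, 50461 bp upstream of Lmo2, a transcriptional cofactor of blood and endothelial cells, had 831 and 1843 bp. At chr4:124450846-124452584, in the noncoding gene 1700057H15Rik, they had 495 and 1739 bp. For all 10 the nearest test peak was at least 452 bp away.

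Only 8 members were at least 1 kb wide in both control tumors. Beside the Cog6, 4930435C17Rik and Marcks members these included, chosen after their values were seen, members near Hoxb4, Spag17, Cd109 and Ppp1r3b. The Hoxb4 member, chr11:96310658-96312216, lay between Hoxb5 and Hoxb4, homeobox genes of body patterning. It had 1467 bp in control 1 and 1557 bp in control 2, and its nearest peak was 2669 bp away in test 1 and 234053 bp away in test 2. The Cd109 member at chr9:78741472-78743019 had 1099 and 1425 bp, with the nearest test peaks 78531 and 78565 bp away.

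Position was examined next, since the rule fixed only the first kilobase around a TSS. The median distance to the nearest protein-coding TSS was 45065 bp for members, 40360 bp for test-only intergenic regions, 38527 bp for intergenic regions of all 4 tumors and 44095 bp for all intergenic regions. Of the members 815 (68.4%) lay within 100 kb of a TSS and 42 beyond 500 kb. The share within 100 kb was 72.2% for test-only regions, 74.8% for regions of all 4 tumors and 70.6% for all intergenic regions. Upstream of the nearest gene lay 66.9% of members, and the share was 68.1% over all intergenic regions. An annotated noncoding gene overlapped 235 members (19.7%), among them 150 with a lincRNA. The share was 18.9% for test-only regions, 20.2% for all intergenic regions and 24.6% for those of all 4 tumors. Regions of all 4 tumors were wider, and a wider region can overlap a noncoding gene more easily. Per autosome the members made up from 2.36% of intergenic regions, on chromosome 19, to 4.59%, on chromosome 10. The members were thus closer to all intergenic regions than to those of all 4 tumors in distance and in noncoding overlap, and no test was made over regions, which are not replicates.

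The absence from the test tumors was often local. The nearest peak of either test tumor lay a median of 4184 bp from a member, and 377 members (31.6%) had a test peak within 1 kb. At the other end 138 members (11.6%) had none within 50 kb. Just inside the limit, a member at chr13:102122300-102123194, near Pik3r1, the regulatory subunit of PI3-kinase, was 1 bp from a test peak. Just outside it, a region at chr8:126836291-126836828, near Tomm20, was lost because a test peak covered 6 bp of a control peak. For the TSS window, a member 1099 bp from the start of Tyrobp was kept and a region 938 bp from the start of Fcgr4 was not.

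Test 2, which had the fewest peaks, lacked more of the regions of the control tumors than test 1 did. Of 14034 intergenic regions with peaks in both control tumors, 2672 (19.0%) had a peak in 1 test tumor, 1984 of them in test 1 and 688 in test 2. The members were 8.49% of the 14034 regions. Test-only regions were 4.07% of the 11934 intergenic regions with peaks in both test tumors.

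Peak coverage around each member, outside its own bases, was compared between the tumors. These flanks can hold other members, whose presence the rule fixed, so the values are given with and without them. Within 10 kb on either side, peaks covered 9.45% of bases in control 1 and 8.41% in control 2, against 7.39% in test 1 and 5.94% in test 2. Both control tumors were higher than both test tumors. The mean was 8.93% ± 0.732 in control tumors (SD, n = 2) and 6.66% ± 1.02 in test tumors (SD, n = 2), a test minus control difference of -2.26 percentage points, where the 4 pairs of a test with a control tumor had an SD of 1.03 (exact permutation test over the 4 tumors, two-sided p = 0.333). With 2 tumors per group, 0.333 is the smallest p this test can give. With the bases of every control-only and test-only region left out, coverage was 9.05% in control 1 and 8.05% in control 2, against 7.42% in test 1 and 5.96% in test 2. The difference was then -1.86 percentage points, with an SD of pairs of 1.02, and both control tumors remained above both test tumors (exact permutation p = 0.333).

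Around all intergenic regions the same coverage was 9.53% ± 0.932 in control tumors and 8.95% ± 0.886 in test tumors (SD, n = 2 in each group), a difference of -0.58 within the SD of pairs of 1.05 (exact permutation p = 0.667). Around test-only regions it was higher in the test tumors, at 10.2% ± 0.208 against 8.93% ± 0.766 (SD, n = 2 in each group; exact permutation p = 0.333). With other members counted, the difference around members was -1.40 with test 2 left out of the selection and the comparison, and -3.71 with test 1 left out. The plot of coverage by distance shows the separation of the groups to be small beside the members' own peaks, with control 2 and test 1 close to each other in places.

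**Figure D2:**
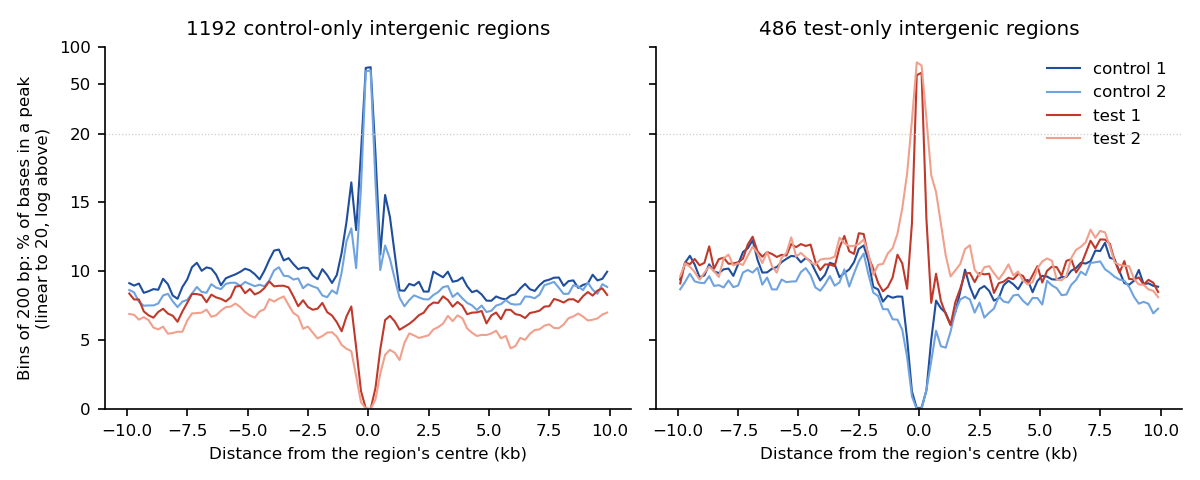
Percent of bases in a peak (y axis, linear to 20 and log above) in bins of 200 bp by distance from the centre of a region (x axis, kb), with a line per tumor. Around the 1192 members, left, coverage within 10 kb averaged from 9.45% in control 1 down to 5.94% in test 2, and around the 486 test-only regions, right, the test tumors had 10.05% and 10.3%.

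The nearest region shared by all 4 tumors was on average narrower in both test tumors. Such a region lay a median of 11452 bp from a member, and 398 members (33.4%) had it within 5 kb. The 812 shared regions within 50 kb that were nearest to a member had a mean peak width of 1911 bp in control 1 and 1805 bp in control 2, against 1746 bp in test 1 and 1517 bp in test 2. The ratio of test to control was 0.878 (exact permutation test, two-sided p = 0.333), and both test tumors were below both control tumors. For test-only regions the nearest shared regions went the other way, with a ratio of 1.105 and both test tumors above both control tumors. Over all 34078 shared autosomal regions the ratio was 0.997, with the widths of the groups overlapping.

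The promoters of the genes nearest to members were then examined. Within 100 kb, 815 members were assigned to 698 genes, 10.4% of the 6733 genes with any assigned intergenic region, and test-only regions were assigned to 329 genes (4.89%). Of the 698 genes, a promoter peak was found at 73.8% in control 1 and 73.2% in control 2, against 72.2% in test 1 and 66.5% in test 2. The group means were 73.5% ± 0.405 and 69.3% ± 4.05 (SD, n = 2 in each group; exact permutation p = 0.333). The difference was -4.15 percentage points with an SD of pairs of 3.33. Test 2 was the lowest, and the difference was -1.07 percentage points with test 2 left out and -6.95 with test 1 left out. A peak in all 4 tumors was found at 453 promoters (64.9%), and 156 (22.3%) had none. Over the 6733 genes nearest to any intergenic region these shares were 60.9% and 28.7%, and test 2 was again the lowest, at 63.7% of promoters, with a difference of -1.54 percentage points (exact permutation p = 1). For the 329 genes nearest to test-only regions a promoter peak was found at 69.1% ± 1.07 in each group (SD, n = 2), a difference of 0 percentage points. There was thus no reversal in promoters around test-only regions.

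Control-only promoters were found at 13 of the 698 genes (1.86%). Over all 20807 protein-coding genes they were 0.548%, test-only promoters were 0.317%, and over the genes nearest to any intergenic region control-only promoters were 0.802%. The 13, listed after their values were seen and with no theme tested, were B4galt5, Clec4d, Dcn, Dnah6, Egfl7, Fblim1, Il1b, Loxl1, Mcemp1, Mpeg1, Pgpep1l, Sod3 and Themis2. Il1b encodes the cytokine interleukin 1 beta, Mpeg1 the macrophage protein perforin-2 and Loxl1 an enzyme that crosslinks elastin. Coverage around the start of these genes follows in part from their choice and is not compared. More generally, coverage around a TSS counts any member that lies there, so part of it is fixed by the rule wherever a member is within 10 kb.

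Genes with several members were examined for runs. Members within 50 kb of each other formed 155 runs that held 357 members (29.9%), and 30 runs had 3 or more. Runs of other regions were not counted, so this share has no background beside it. The largest, with 6 members over 80.75 kb, lay between Foxo1 and Cog6, a subunit of the Golgi tethering complex, at chr3:52880961-52961710, 20.164 kb from the Cog6 gene. Its members were 1461, 1991, 1091, 984, 1611 and 705 bp wide. Over the whole run, members included, peaks covered 15.594 kb in control 1 and 5.794 kb in control 2, against 1.09 kb in test 1 and 1.685 kb in test 2. Coverage was far higher in control 1 than in control 2, and each test tumor had 3 peaks between the members.

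The run with 5 members at chr7:39789700-39867830 lay in and beside the lincRNA 4930435C17Rik, with Zfp619 249.279 kb away on its left. Peaks covered 3.175 kb of it in control 1 and 5.448 kb in control 2, and there were 0 peaks in either test tumor. A further run of 5 members at chr3:38076199-38146346, between Gm5148 and Ankrd50, had peaks over 5.4 and 2.735 kb in the control tumors, against 0.39 and 0.193 kb in the test tumors.

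The run with 5 members at chr4:136116922-136170978 surrounded Id3, an inhibitor of basic helix-loop-helix transcription factors, and ended 1.415 kb from E2f2, a cell cycle transcription factor. Peaks covered 4.94 kb in control 1 and 6.79 kb in control 2, against 1.743 kb in test 1 and 0 kb in test 2. Here 4 of the members had a test 1 peak within 1 kb, and the nearest test 2 peak of those at Id3 was at least 24728 bp away. At Dppa3, a gene of germ cells and early embryos that neighbours Nanog, 4 members at chr6:122635766-122657680 spanned 21.915 kb, with 4.365 kb covered in control 1, 0.825 kb in control 2 and 0 peaks in either test tumor.

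**Figure D3:**
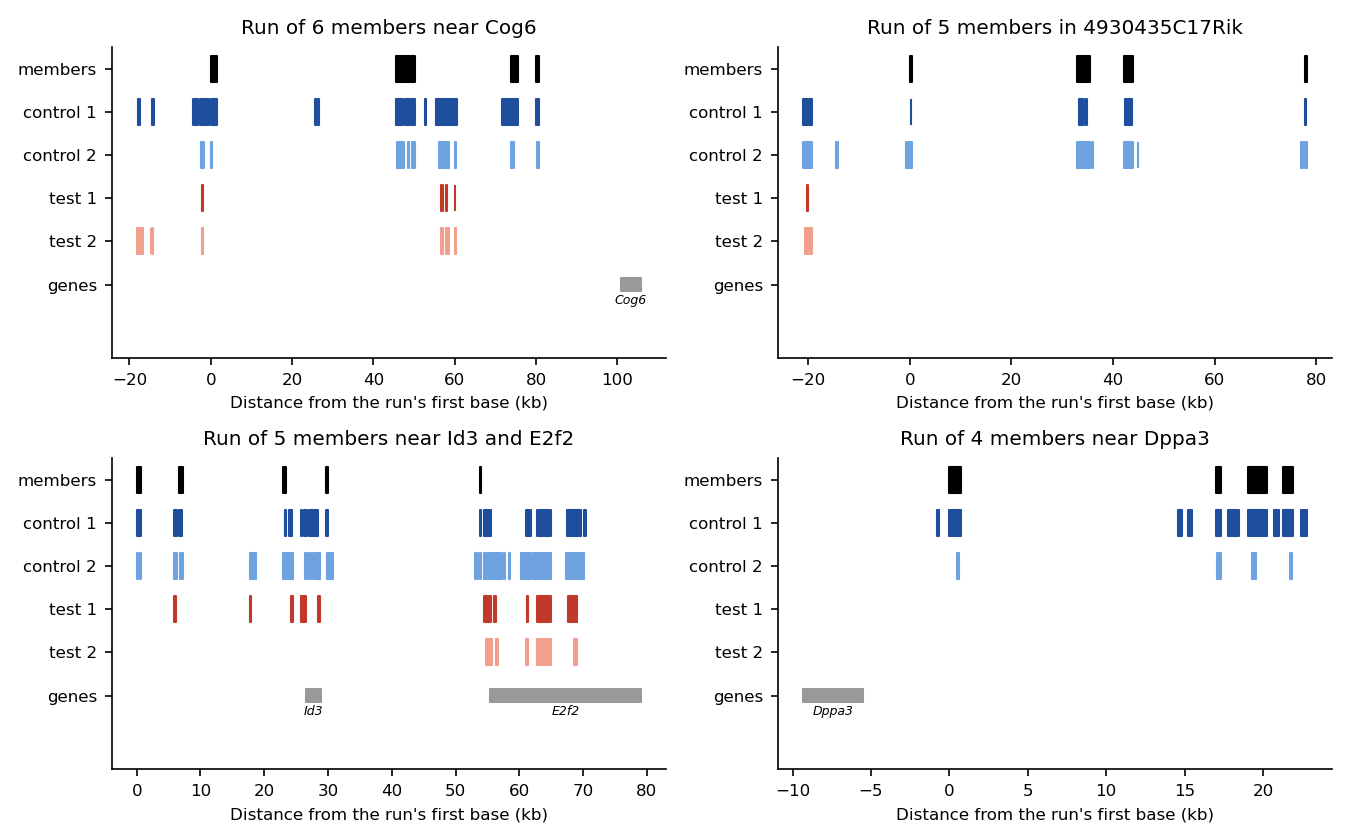
Peaks of each tumor (coloured bars), members (black bars) and protein-coding genes (grey bars) across 4 runs of members, by distance from the first base of the run (x axis, kb). The test tumors had 0 peaks in the 4930435C17Rik and Dppa3 runs and 3 each in the Cog6 run.

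By gene, Cog6 had 5 assigned members, and Dppa3, Tns3, Id3 and Pomgnt2 had 4 each. Tns3 encodes a tensin of focal adhesions and Pomgnt2 a glycosyltransferase of dystroglycan. Of the 698 genes with a member, 18 had 3 or more and 605 had 1. By the same count 0 of 329 genes had 3 or more test-only regions, and 2877 of 6733 had 3 or more intergenic regions of any kind.

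Members were then set against lists of genes. Of 102 genes of an epithelial-mesenchymal transition (EMT) and mesenchymal effector list with any assigned intergenic region, 25 (24.5%) had a member. The share over all genes with an assigned region was 10.4%. The 102 genes held 472 assigned intergenic regions and all 6733 genes held 22284, so regions per gene differed and the gene shares are not like for like. Of assigned members 35 regions, 4.29%, belonged to the EMT list. The same list took 2.12% of all assigned intergenic regions, 1.51% of those of all 4 tumors and 1.14% of test-only ones. With the same number of widest peaks taken in each tumor, 15 genes had a member, and the list took 3.63% of assigned members against 2.04% of all assigned regions. Of 49 mammary differentiation genes 1 (2.04%) had a member, Lpl, against the same 10.4% over all genes. The list took 0.123% of assigned members against 1.24% of all assigned regions. EMT had been examined in these tumors before, so these counts describe the members and are not independent evidence.

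**Figure D4:**
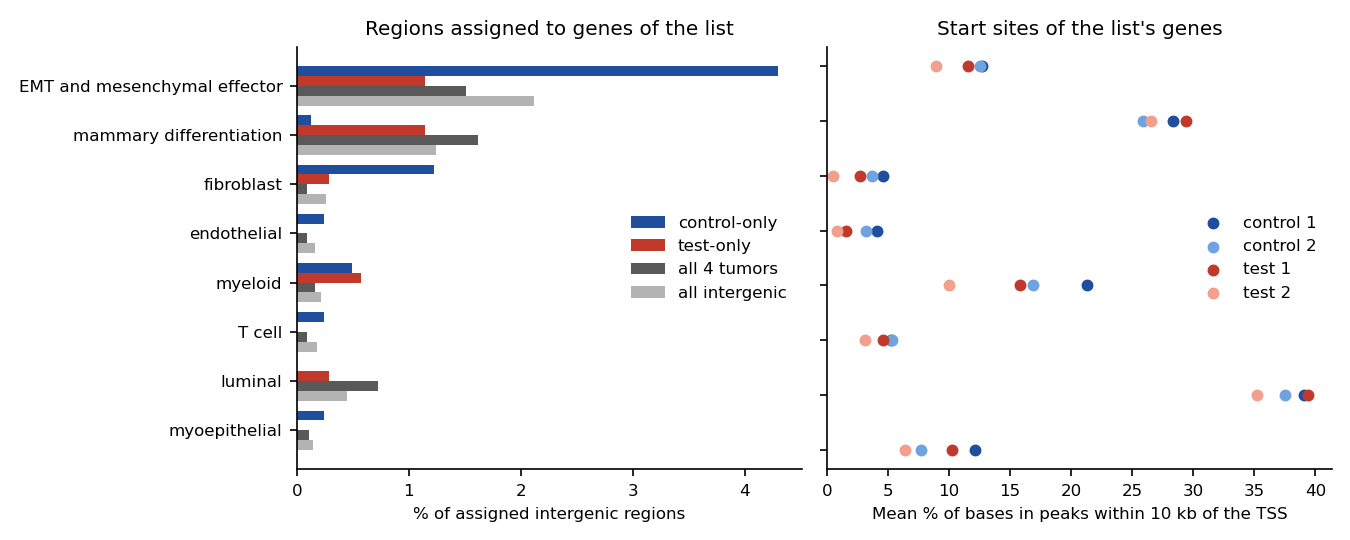
Left, percent of assigned intergenic regions that belonged to genes of 8 lists (x axis), for control-only, test-only, all-tumor and all intergenic regions. Right, mean percent of bases in peaks within 10 kb of the TSS of the same genes (x axis) with a point per tumor. The EMT list took 4.29% of members and 1.14% of test-only regions, and fibroblast start sites had 0.478% coverage in test 2 against 4.58% in control 1.

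Of the EMT genes, Gadd45a, Col1a2 and Dcn had 3 members each. Type I collagen is a trimer that includes the product of Col1a2, and decorin, from Dcn, is a small proteoglycan that binds collagen fibrils. At Col1a2 the members chr6:4430302-4431505 and chr6:4431809-4432278 lay 73309 and 72536 bp upstream of the TSS, and chr6:4488699-4489395 lay 15419 bp upstream. The first had 833 bp in control 1 and 902 bp in control 2, the second 464 and 230 bp, and the third 275 and 697 bp. From 100 kb before to 25 kb after the TSS, control 1 had 5 peaks, control 2 had 8, test 1 had 0 and test 2 had 1, counts that include the members. Around the Col1a2 start the promoter window itself had a peak in 0 of the 4 tumors.

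At Dcn the members chr10:97389866-97390242, chr10:97397613-97397888 and chr10:97470260-97470688 lay 89367, 81721 and 8921 bp upstream. Their bases in peaks were 301, 225 and 307 bp in control 1 and 377, 276 and 242 bp in control 2. Over the same window around its TSS control 1 had 5 peaks covering 1.665 kb, control 2 had 9 covering 3.34 kb, the members included, and both test tumors had 0. The Dcn promoter was also control-only, with 4.16% and 7.69% of the 10 kb on either side of the TSS in peaks of the control tumors. The map of these loci shows empty rows for test 1 at Col1a2 and for both test tumors at Dcn.

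**Figure D5:**
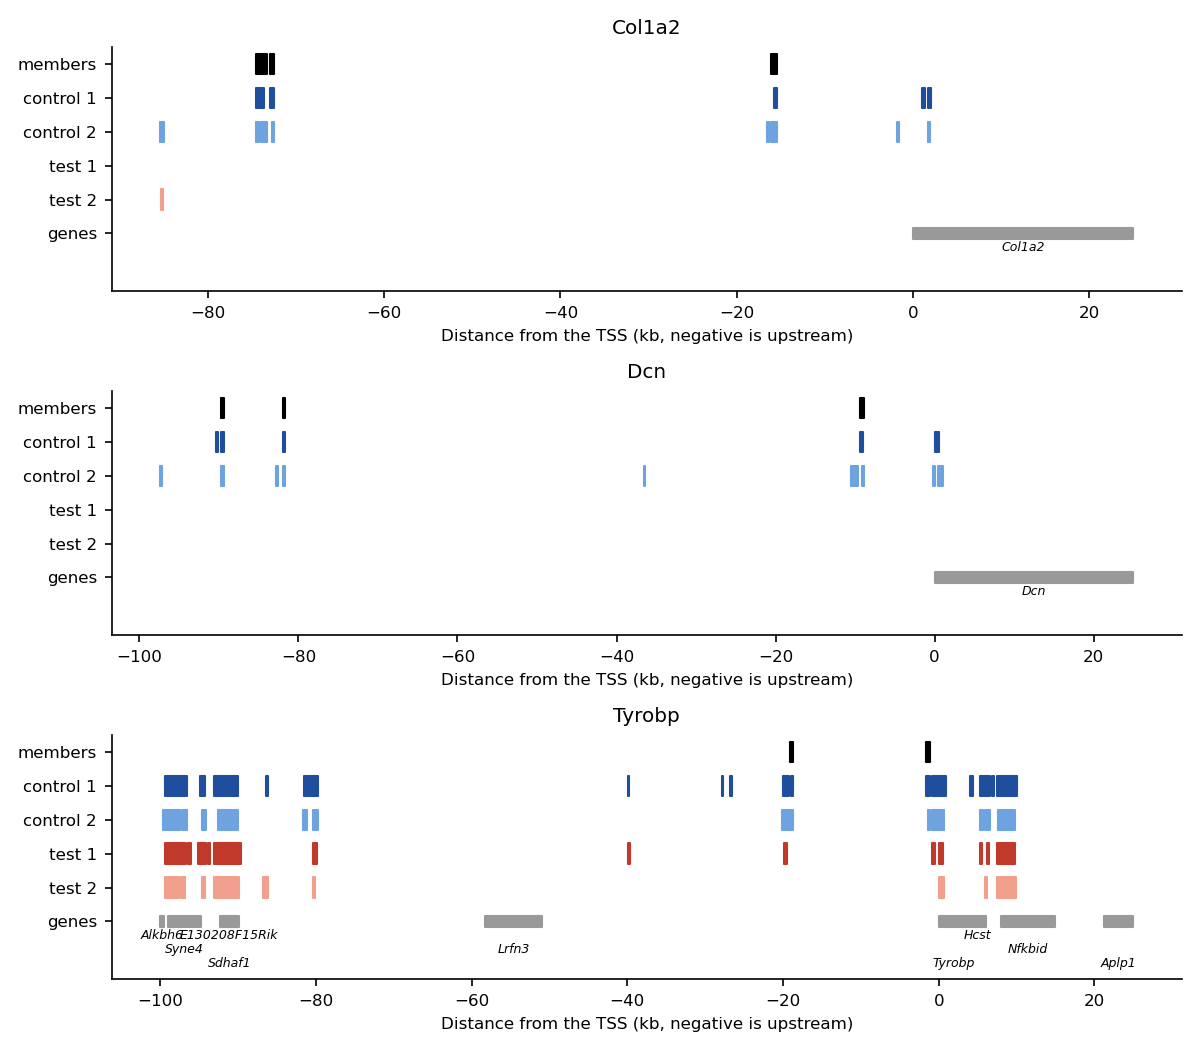
Peaks of each tumor (coloured bars), members (black bars) and protein-coding genes (grey bars) from 100 kb upstream to 25 kb downstream of the TSS of Col1a2, Dcn and Tyrobp (x axis, kb from the TSS). At Dcn both test tumors had 0 peaks, while at Tyrobp they had 13 and 10 against 17 and 13 in the control tumors. The control counts include the members, whose state the rule fixed.

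Gadd45a, a stress-response gene that restrains the cell cycle, had members at chr6:67027050-67027693, chr6:67076004-67076840 and chr6:67128486-67129766. Their bases were 644, 837 and 177 bp in control 1 and 364, 274 and 1281 bp in control 2. The Gadd45a promoter had a peak in all 4 tumors, and coverage within 10 kb of the TSS was 42.5%, 28.3%, 27.4% and 17.6% in control 1, control 2, test 1 and test 2, where control 2 and test 1 were nearly equal. Comp, a matrix protein of cartilage and fibrotic stroma, had members at chr8:70366911-70367296 and chr8:70371651-70372055, 6262 and 1503 bp upstream, with 386 and 393 bp in control 1 and 326 and 308 bp in control 2. From 100 kb before to 25 kb after its TSS, the members included, peaks covered 5.985 and 5.814 kb in the control tumors. They covered 6.47 kb in test 1 and 4.574 kb in test 2, so the groups overlapped.

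The other named EMT genes differed in what surrounded the members. Nt5e, the ecto-enzyme CD73, had members of 391 and 271 bp. The window from 100 kb before to 25 kb after its TSS, any member there included, held 14 and 9 peaks in the control tumors. It held 9 and 13 in the test tumors, so the groups overlapped. Thbs1, which encodes the matrix glycoprotein thrombospondin 1, had members of 354 and 318 bp. Its window, its members included, held 10 and 9 peaks against 6 and 2. The 10 kb on either side of its TSS were covered to 11.9% in control 2 but to 17.8% in test 2. At both genes the promoter had a peak in all 4 tumors.

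Among cell type lists, 6 of 13 fibroblast genes (46.2%) with an assigned region had a member, against 10.4% over all genes with an assigned region. These were Col1a2, Dcn, Twist1, Prrx1, Col1a1 and Fbln2, all of them also EMT genes. The fibroblast list took 1.23% of assigned members and 0.256% of all assigned regions. The Twist1 member, chr12:34040066-34040882, had 173 bp in control 1 and 817 bp in control 2. The Prrx1 member, chr1:163239241-163239758, had 518 and 345 bp, the Col1a1 member, chr11:94916265-94916679, 415 and 164 bp, and the Fbln2 member, chr6:91200572-91200952, 381 and 158 bp. Twist1 and Prrx1 encode transcription factors of mesenchyme, and Col1a1 and Fbln2 matrix proteins.

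Coverage at the start sites of the fibroblast list was lower in both test tumors. A promoter peak was found at 7 of 19 fibroblast genes in each control tumor, at 6 in test 1 and at 0 in test 2, and mean coverage around their TSS was 4.58%, 3.67%, 2.70% and 0.478% in that order. Of its defining genes, Col1a1 had a promoter peak in control 1 and Pdgfra in control 2 and test 1, and both had 0 peaks there in test 2. Their coverage, in the same order of tumors, was 10.5%, 3.19%, 6.10% and 3.21% for Col1a1 and 12.7%, 11.0%, 12.1% and 3.25% for Pdgfra. At both genes test 1 thus lay above control 2. The part of fibroblast content in the count of members was not tested.

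In the endothelial list 1 of 9 genes (11.1%) had members, close to the 10.4% over all genes with an assigned region, and the list took 0.245% of assigned members and 0.157% of all assigned regions. Egfl7, a secreted factor of blood vessels, had them at chr2:26552070-26552360, with 155 bp in control 1 and 158 bp in control 2, and at chr2:26553466-26553943, with 420 and 463 bp. From 100 kb before to 25 kb after the Egfl7 start, the members included, test 1 had the most covered sequence, 27.761 kb. Control 1 had 27.386 kb, control 2 had 25.263 kb and test 2 had 15.617 kb. Promoter peaks of the list numbered 10, 6, 4 and 0 of 18 genes in control 1, control 2, test 1 and test 2, with coverage of 4.05%, 3.17%, 1.53% and 0.821%. The promoter of the defining gene Pecam1 had a peak in the control tumors alone, and Cdh5 lacked it in test 2 alone. The part of endothelial content was likewise not tested.

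In the myeloid list 3 of 14 genes (21.4%) had members, against 10.4% over all genes with an assigned region. Tyrobp, the signalling adaptor DAP12, had them at chr7:30394722-30394995, with 219 bp in control 1 and 260 bp in control 2, and at chr7:30412176-30412661, with 484 and 267 bp. Ccr2, the chemokine receptor of inflammatory monocytes, had a member at chr9:124070671-124071512, with 842 and 426 bp, and coverage around its TSS of 6.23%, 1.30%, 0 and 0 in control 1, control 2, test 1 and test 2. Cd14, a co-receptor for lipopolysaccharide, had a member at chr18:36713405-36714113 in which the 567 bp of control 1 and the 158 bp of control 2 shared 16 bp. Around the Cd14 start the order was different, with 48.9% and 32.6% covered in the control tumors but 54.8% in test 1 and 41.7% in test 2. Myeloid promoter peaks numbered 16, 15, 13 and 12 of 21 genes, and the list's coverage was 21.3%, 16.9%, 15.8% and 10.0%. Of its defining genes, Spi1 had a promoter peak in all 4 tumors and Csf1r in none (0 tumors). The myeloid list took 0.491% of assigned members, 0.570% of test-only regions and 0.211% of all assigned regions, and its part in the members was not tested.

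Of 13 luminal genes with an assigned region 0 had a member, a count too small to read against the 10.4% over all genes, and promoter peaks of the luminal list numbered 17, 16, 17 and 16 of 18 in control 1, control 2, test 1 and test 2. The defining luminal genes Krt8, Krt18 and Epcam had a promoter peak in all 4 tumors, so these markers of mammary epithelium were present under every label. Of 9 myoepithelial genes 2 (22.2%) had a member, with 0.245% of assigned members against 0.144% of all assigned regions. These were, named after their values were seen, Krt14 at chr11:100210088-100210279, with 180 and 181 bp, and Trp63 at chr16:25621620-25621792, with 157 and 166 bp. The Krt14 promoter had a peak in control 1 and test 1. Lpl, lipoprotein lipase of the mammary list and also of adipocytes, had a member at chr8:68908071-68908838, with 241 bp in control 1 and 768 bp in control 2, and coverage around its TSS of 0 in the 4 tumors.

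In the T cell list 2 of 7 genes (28.6%) had a member, with 0.245% of assigned members against 0.175% of all assigned regions. These were, also named after their values were seen, Cd2 at chr3:101295424-101295653, with 156 and 200 bp, and Bcl11b at chr12:108043516-108043705, with 187 and 176 bp. The promoters of the defining genes Cd3e and Cd4 had a peak in 0 tumors, and promoter peaks of the list numbered 4, 5, 5 and 2 of 17 genes in control 1, control 2, test 1 and test 2. The part of T cell content was not tested. The hepatocyte list had 1 gene of 5 with a member, Fgg. The adipocyte, skeletal muscle, Schwann and nerve, cell cycle, oxidative phosphorylation and neuron lists had 0 of 5, 5, 7, 6, 7 and 3 genes, too few to read a 0 against 10.4%.

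Of 20 genes that the study discussed or engineered, 7 had any assigned intergenic region and 0 had a member assigned, which at the 10.4% over all genes is a count too small to read. Within 100 kb, Ltf, the milk protein lactoferrin, had a member 40.395 kb away at chr9:111059666-111060356, nearer to Ccrl2, with 691 bp in control 1 and 426 bp in control 2. Muc1, an epithelial mucin, had a member 56.052 kb away at chr3:89285109-89285574, nearer to Efna1, with 258 and 261 bp. The other 18 genes had no member within 100 kb.

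The base composition of members was close to that of other intergenic regions. Median GC content was 46.3% in members, test-only and all intergenic regions and 46.5% in those of all 4 tumors. Observed over expected CpG had a median of 0.203 in members and 0.196 over all intergenic regions, and 13 members (1.09%) passed 0.6 with GC content over 50%. More than 50% soft-masked repeat was found in 141 members (11.8%), against 8.11% of all intergenic regions, 8.85% of test-only regions and 3.62% of those of all 4 tumors. The median masked share went the other way, at 12.0% in members, 13.8% over all intergenic regions and 16.6% in those of all 4 tumors. In test-only regions it was 11.9%. No masked base was found in 14.1% of members, 15.7% of all intergenic regions and 2.42% of those of all 4 tumors.

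Matches to 20 motifs were counted in the 300 bases at each centre, on both strands, and the share over all intergenic regions is given beside each. AP-1, the FOS and JUN family site TGANTCA, was found in 9.73% of members, 11.8% of all intergenic regions, 10.3% of test-only regions and 14.2% of those of all 4 tumors. The order changed when narrow peaks were dropped, which replaced most of the regions. With peaks of at least 500 bp the rule found 423 regions, of which 59 had the coordinates of a member, and AP-1 was in 18.4% of them, against 14.5% of all intergenic regions and 11.0% of test-only regions. With peaks of at least 1 kb, where 4 of 282 regions had the coordinates of a member, the shares were 17.4%, 15.1% and 16.6%.

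The TEAD site CATTCC was found in 20.5% of members and 17.8% of all intergenic regions. Of the E-boxes, CACCTG, which SNAI and ZEB repressors bind, was found in 16.9% and 19.9%, and CAGCTG in 18.9% and 17.1%. Of sites for leukocyte factors, RUNX (TGTGGTT) was at 7.30% and 7.07%, the GATA site AGATAA at 13.6% and 13.7%, and the PU.1 site GAGGAAGT, which holds the ETS core GGAAGT, at 2.52% and 2.98%. The CArG box was found in 1.85% and 1.60%. GRHL, the site AACCGGTT of epithelial grainyhead factors, was in 0 members and 0.177% of all intergenic regions. Sites of the C/EBP (TTGCNNAA), STAT (TTCNNNGAA) and NF-kB (GGGANTTTC) factors of inflammation were in 15.4%, 10.1% and 0.923% of members, against 14.2%, 11.1% and 1.33% of all intergenic regions. The IRF site GAAANNGAA was in 11.9% and 11.5%, SOX (CATTGT) in 17.2% and 17.3%, and Forkhead (TGTTTAC) in 4.78% and 4.89%. The ETS core by itself was in 20.8% and 22.4%, the NFI site TTGGCA in 20.1% and 20.2%, and TFAP2 (GCCNNNGGC) in 9.14% and 8.98%. The steroid receptor element ACANNNTGT was in 9.48% and 9.70%, and MEF2 in 0.419% and 0.649%. Of the 20 motifs, the shares in members and in all intergenic regions were furthest apart for CACCTG, by -2.96 percentage points, and no test was made of these shares.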

How the data were processed

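H3K27ac ChIP-seq peak lists of 4 tumors were used. The authors aligned reads to mm10 with BWA, called peaks in each tumor against its input with MACS2, cleaned and merged them, and deposited intervals as chromosome, start and end in base pairs, with no score. What the cleaning removed was not given in the sources used here, and merging makes regions wider and fewer. Input libraries were not analysed here. Groups follow the genotype in the labels, and tumor numbers only name tumors.

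Intervals were joined, classified and measured with Python 3.11.15, numpy 2.4.6, pandas 2.3.3 and pysam 0.24.0, against GENCODE M21 genes, with the annotated 5′ end as TSS. Interval functions were tested on simulated lists. The members, gene lists, motifs and tests were chosen with earlier results of these data known. Named regions were the 10 widest, the 5 runs with most members, members of up to 6 genes for each of 5 lists, those within 100 kb of a study gene and those at the limits, and others are marked where named. Alternatives changed 1 choice at a time. Tests permuted tumors exactly. Per the study, each tumor came from its own mouse, so p-values measure the spread between mice.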

Additional observations from a re-analysis of the deposited data

How the results depend on the processing

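The differences in neighbouring coverage and in nearest-gene promoters kept their direction in every alternative tried, where coverage, but for the added alternative at -1.86, counts other members whose state the rule fixed. With all 4 tumors kept, coverage ranged from -1.13 percentage points after joining peaks 1 kb apart to -2.91 for peaks of 500 bp and more. The promoter difference was -3.32 with an SD of pairs of 5.11 for peaks of 500 bp and more, -3.55 with 3.79 for a TSS window of 5 kb and -3.76 with 3.80 without control 2, so there it lay within its spread, and the p-value could not pass in any of them. With peaks of at least 500 bp there were 423 members, 59 of them with the same coordinates as before, a median TSS distance of 40558 bp, 71.2% within 100 kb, 15 EMT and 2 mammary genes with a member, and AP-1 in 18.4%. With peaks of at least 1 kb there were 282 members, 4 with the same coordinates, 72.3% within 100 kb, 8 EMT and 2 mammary genes, and AP-1 in 17.4%. With peaks of at least 500 bp the EMT list took 4.98% of assigned members against 1.97% of all assigned regions. With peaks of at least 1 kb these shares were 3.92% and 1.95%. With the same number of widest peaks per tumor, 15 EMT and 2 mammary genes had a member, while 845 members stood against 574 test-only regions. Joining peaks within 1 kb put AP-1 at 12.9%. With no test peak within 2 kb there were 712 members at a median of 52283 bp from a TSS. A TSS window of 5 kb gave 53458 bp and 65.4% within 100 kb. Assignment within 20 kb left 13 EMT and 0 mammary genes, and within 500 kb 3 mammary genes. A window of 500 bases, which holds more matches by construction, put AP-1 at 18.4%, and the shortest limit between members gave 97 runs.

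Leaving out each tumor in turn gave from 1958 to 5348 members, medians from 39138 to 52992 bp, 65.5% to 73.0% within 100 kb, coverage differences from -3.71 to -1.40, promoter differences from -6.95 to -1.07, 35 to 54 EMT and 6 to 19 mammary genes, AP-1 from 9.35% to 11.5% and median GC from 45.8% to 47.3%. The EMT list took 3.22%, 3.71%, 3.48% and 3.73% of assigned members without control 1, control 2, test 1 and test 2. Its shares of all assigned regions were 2.01%, 2.05%, 2.15% and 2.19% in that order. Counts of members and genes rise there by construction, since the rule then asks for fewer tumors. Likewise test-only regions outnumbered members where a test tumor was left out, 2920 against 1958 without test 2 and 4201 against 3273 without test 1, and were fewer where a control tumor was left out. With a test tumor left out, test-only regions needed a peak in only 1 test tumor, while members still needed both control tumors. Leaving out a control tumor did the reverse. Part of this change is thus fixed by the rule, and how much was not tested. The alternative that left out every control-only and test-only region was added after seeing the data. No paired analysis was possible because tumor numbers pair no samples. Depth is unknown, so a missing peak may be a weak one.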
